A study of Arabidopsis thaliana with 2 samples.

Results

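The genes described here are the photosynthesis genes that the plastid itself encodes: those of photosystem I (psa), photosystem II (psb), the cytochrome b6f complex (pet), the chloroplast ATP synthase (atp) and the large subunit of Rubisco (rbcL). Members were the probe sets annotated with a single gene, lying on the plastid chromosome in the TAIR10.1 gene table, whose symbol starts with psa, psb, pet, atp or rbc. The rule took 33 of 22746 probe sets, each for a different gene, and these are all 33 plastid genes of the table with such symbols. There were 5 genes of photosystem I, 15 of photosystem II, 6 of the cytochrome b6f complex, 6 of the ATP synthase and 1 of Rubisco. The rule uses names and chromosome and no signal.

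Signals were compared between ros1-1 seedlings and C24_WT seedlings of Arabidopsis thaliana, both 15 days old and grown on MS medium at 22 °C with 16 h of light and 8 h of darkness. ROS1 encodes a DNA glycosylase that removes methylated cytosines, ros1-1 is a mutant allele of it in the accession C24, and C24_WT is the wild type of the same accession. Total RNA of whole seedlings was hybridised to Affymetrix expression arrays, 1 array per genotype. With no replicates, no test was possible, no p-value is given, and every difference describes these 2 arrays. Whether seedlings were pooled for an array is not stated in the labels. Fewer green cells and less plastid RNA per cell cannot be told apart in such samples.

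In the light reactions, photosystem II takes electrons from water, the cytochrome b6f complex passes them on and pumps protons, photosystem I lifts them to ferredoxin, and the ATP synthase uses the proton gradient. The plastid chromosome keeps the genes of the reaction centre cores and of several small subunits, while the nucleus encodes the remaining subunits and the light-harvesting proteins. In plants many of the plastid genes are read as polycistronic transcripts, mainly by a bacterial-type RNA polymerase whose core subunits are the plastid rpo genes. Plastid messengers mostly lack the poly(A) tails of nuclear messengers, and how fully they were labelled on these arrays was not tested.

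The plastid photosynthesis genes gave bright and closely similar signals on both arrays, with photosystem II genes holding the widest differences. The reaction centre gene psbD was 1.67-fold lower in ros1-1, the antenna genes psbB and psbC were 1.44-fold and 1.33-fold lower, and psbN was 1.47-fold higher. Of the 33 genes, 13 had a higher and 20 a lower signal in ros1-1, that is 39.4% higher. Among the 14126 measured probe sets 49.2% were higher and 50.8% lower. A brighter set, chosen after the values were seen, held the 1051 probe sets with a mean signal of at least 2835, the lower quartile of the members. In that brighter set 60.3% were higher in ros1-1, with a median log2 ratio of 0.04. After quantile normalization or removal of an intensity trend 10 of the 33 were higher. The median log2 ratio, ros1-1 over C24_WT, was -0.05 for the 33 genes, or -0.10 under quantile normalization or trend removal, and -0.01 for all measured probe sets. The SD of the log2 ratios was 0.27 for the members, 0.27 for all measured probe sets and 0.21 for the brighter set of 1051.

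All 33 members lay on both arrays above a floor of 132, the 40th percentile of all signals, which a probe set had to reach on at least 1 array to be called measured. At the 1.5-fold level 0 of 33 members were higher, beside 1.85% of all measured probe sets, and 1 of 33, psbD, was lower, beside 1.95%. Within the range of signals that the members cover, those shares of probe sets were 1.57% higher and 1.71% lower. In the brighter set of 1051 probe sets, 9 were higher and 9 lower at this level. At the 2-fold level 0 of 33 were higher and 0 of 33 were lower, beside 0.205% and 0.241%. With at most 1 of 33 members past either level in either direction, these counts single out no group of members. As a yardstick of measurement error, probe sets of 1 gene scattered about the mean of their gene with an SD of 0.19 in log2 ratio, over 61 genes. This yardstick leaves out differences between plants and between RNA preparations. A log2 ratio beyond 0.19 in either direction was found for 16 of 33 members, beside 40.2% of all measured probe sets. Beyond double that scatter lay 4 of 33, psbD, psbB, psbC and psbN, beside 13.2% of all measured probe sets, a share close to that of the members.

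**Figure D1:**
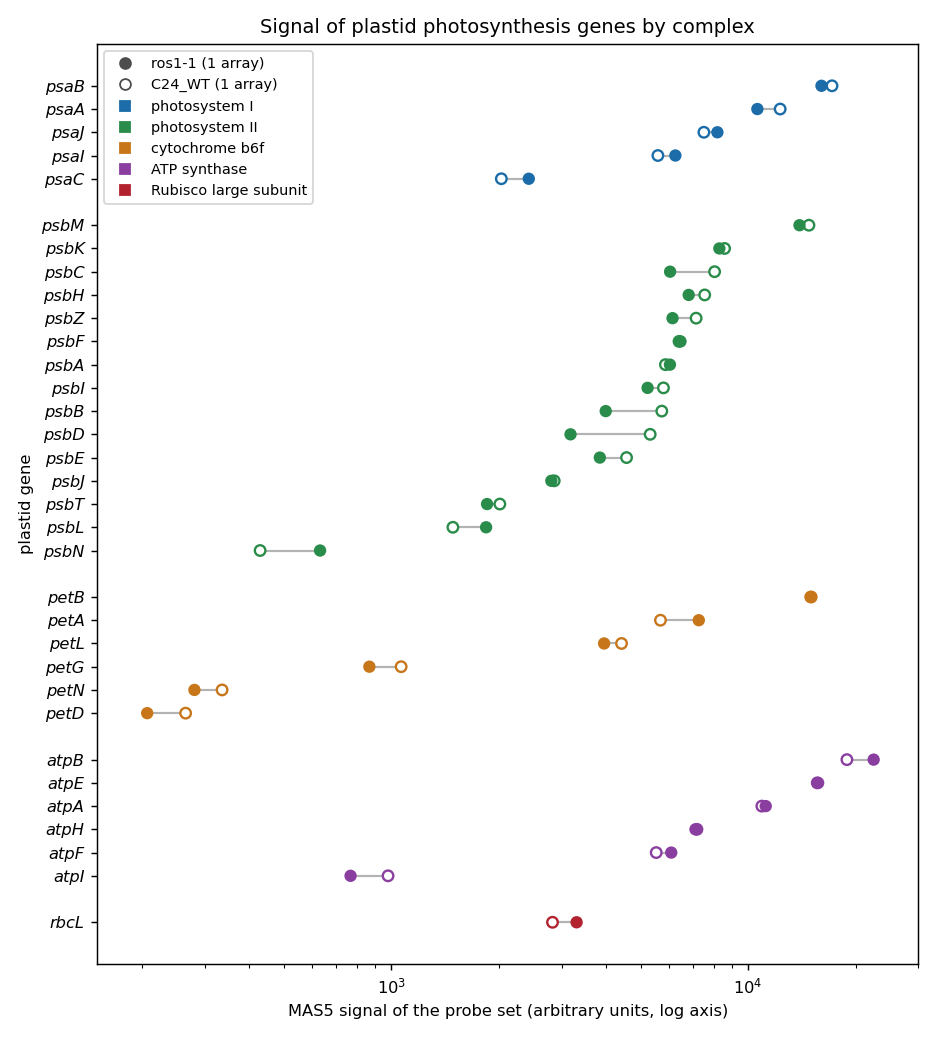
MAS5 signal of each plastid photosynthesis gene (log axis, arbitrary units) in ros1-1 (filled) and C24_WT (open), 1 array each, grouped by complex and sorted by the C24_WT signal. The members run from petD, at 207 in ros1-1 and 265 in C24_WT, to atpB, at 22469 in ros1-1 and 18909 in C24_WT, and the widest gaps between the arrays are those of psbD, psbB and psbN.

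Most of these genes were among the brightest features of the arrays: 28 of 33 lay in the brightest 10% of probe sets on the ros1-1 array and 28 of 33 on the C24_WT array. Their summed signal was 1.43% of all signal in ros1-1 and 1.48% in C24_WT. The ATP synthase gene atpB had the highest signal of all 22746 probe sets in ros1-1 and ranked 5 in C24_WT. Across the 33 genes the log2 signals of the arrays correlated with r = 0.99, a description over genes that share their libraries and are not independent replicates. The log2 ratio showed next to no relation to the mean signal (r = 0.10 over the same 33 genes). The signal of a probe set also depends on how well its probes bind, so the order of genes below is an order of probe-set signals and not of transcript amounts.

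Photosystem II, which splits water, held both the lowest and the highest ratio of all 33 genes. Of its 15 genes, 4 were higher and 11 lower in ros1-1, or 3 and 12 under quantile normalization or trend removal, and the median log2 ratio was -0.12. Its reaction centre is a pair of related proteins, D1 from psbA and D2 from psbD, which carry the pigments and quinones of the primary charge separation. The signal of psbD was 3179 in ros1-1, against 5314 in C24_WT, a log2 ratio of -0.74. Its partner psbA had 6037 in ros1-1 and 5863 in C24_WT, a log2 ratio of 0.04. The 2 reaction centre genes therefore differed from each other in ratio by more than the scatter of probe sets of 1 gene. Only 0.93% of all measured probe sets had a ratio as low as that of psbD. Among the 1051 probe sets with a mean signal of at least 2835, the lower quartile of the members, 4 had a lower ratio than psbD, a comparison chosen after the values were seen.

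The inner antenna of photosystem II consists of CP47, the product of psbB, and CP43, the product of psbC, which hand excitation energy to the reaction centre. Gene psbB had a signal of 3989 in ros1-1 and 5728 in C24_WT, a log2 ratio of -0.52. Gene psbC had 6043 in ros1-1 and 8052 in C24_WT, a log2 ratio of -0.41. Both antenna genes were thus lower in ros1-1 along with psbD, and psbA was not. Cytochrome b559, a heme protein beside the reaction centre, is made of the products of psbE and psbF. For psbE the signal was 3840 in ros1-1 and 4563 in C24_WT, a log2 ratio of -0.25. For psbF it was 6463 in ros1-1 and 6402 in C24_WT, a log2 ratio of 0.01 that turned to -0.03 under quantile normalization and trend removal.

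The remaining psb genes encode very small membrane proteins at the edges of the complex and between its monomers. Of 8 such genes, psbH, psbI, psbJ, psbK, psbL, psbM, psbT and psbZ, 7 were lower in ros1-1, 6 of them by no more than the scatter of probe sets of 1 gene. The brightest was psbM, with 13925 in ros1-1 and 14801 in C24_WT, which also gave the highest signal of photosystem II. Gene psbK had 8304 in ros1-1 and 8589 in C24_WT. For psbH, whose product is phosphorylated in the light, the signal was 6814 in ros1-1 and 7554 in C24_WT. All of these were slightly lower in ros1-1. The log2 ratio of psbH was -0.15, or -0.20 under quantile normalization and -0.19 after trend removal. Under both scalings it was just beyond the scatter of probe sets of 1 gene. Gene psbI had 5226 in ros1-1 and 5789 in C24_WT, a log2 ratio of -0.15. For psbZ, needed in tobacco for supercomplexes with the outer antenna, the signal was 6138 in ros1-1 and 7148 in C24_WT, a log2 ratio of -0.22. Of the 8, psbZ had the lowest ratio. Gene psbT had 1855 in ros1-1 and 2015 in C24_WT, and psbJ had 2809 in ros1-1 and 2861 in C24_WT, a log2 ratio of -0.03. The exception was psbL, whose product lies where the monomers of the dimer meet, with 1844 in ros1-1 and 1488 in C24_WT, a log2 ratio of 0.31.

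Gene psbN was the dimmest psb gene and the one with the highest ratio of all members. Its product, studied in tobacco, is an assembly factor of photosystem II and not a subunit, and the gene is read from the opposite strand between psbT and psbH. The signal was 632 in ros1-1 and 429 in C24_WT, a log2 ratio of 0.56, and 2.18% of all measured probe sets had a ratio at least as high. Its neighbours psbT and psbH on the other strand were slightly lower, with log2 ratios of -0.12 and -0.15. Under quantile normalization the ratio of psbN was 0.59 and passed the 1.5-fold level.

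**Figure D2:**
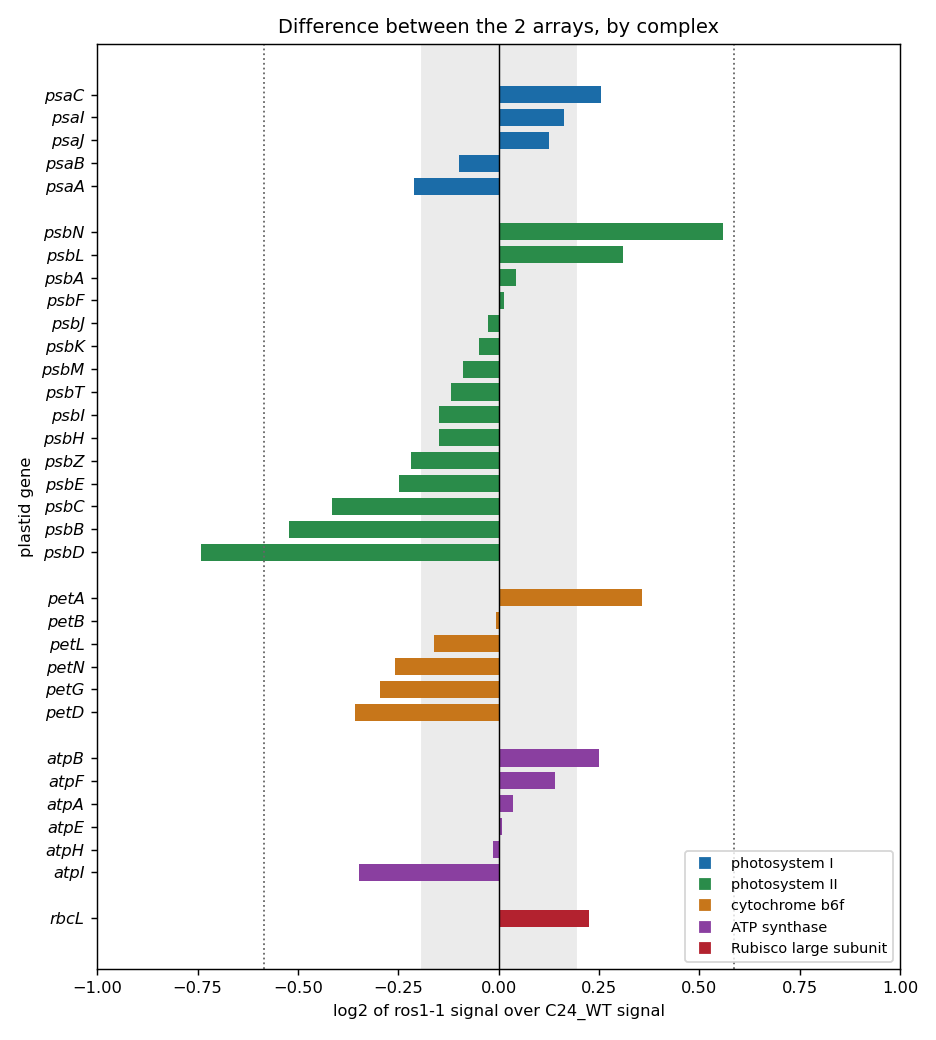
Log2 ratio of ros1-1 over C24_WT for each plastid photosynthesis gene, sorted within its complex; bars start at 0, the grey band is the scatter of probe sets of 1 gene (SD 0.19) and the dotted lines mark 1.5-fold. Only the bar of psbD crosses a dotted line, and those of psbB, psbC and psbN come next in length.

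Photosystem I, which reduces ferredoxin, showed small differences in both directions, with 3 of 5 genes higher in ros1-1 and a median log2 ratio of 0.13, or 0.06 under quantile normalization and 0.08 after trend removal. Its reaction centre is built from the large proteins of psaA and psaB. The signal of psaA was 10612 in ros1-1 and 12293 in C24_WT, a log2 ratio of -0.21. That of psaB, the highest of this complex, was 16047 in ros1-1 and 17178 in C24_WT, a log2 ratio of -0.10. Both reaction centre genes were lower in ros1-1, by about the scatter of probe sets of 1 gene or less. The other 3 genes were higher in ros1-1. Gene psaC, whose product holds the terminal iron-sulfur clusters, had the lowest signal of the complex, 2428 in ros1-1 and 2034 in C24_WT, and its highest log2 ratio, 0.26. The small subunit gene psaI had 6252 in ros1-1 and 5586 in C24_WT, a log2 ratio of 0.16. Its fellow psaJ had 8200 in ros1-1 and 7515 in C24_WT, a log2 ratio of 0.13.

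The cytochrome b6f complex links the photosystems, and 5 of its 6 genes were lower in ros1-1, with a median log2 ratio of -0.21, or -0.05 under a floor at the 60th percentile. The only higher gene was petA, which encodes cytochrome f and had 7272 in ros1-1 and 5679 in C24_WT, a log2 ratio of 0.36. Gene petB, for cytochrome b6, was the brightest of the complex and nearly equal on both arrays, at 14949 in ros1-1 and 15017 in C24_WT. The dimmest of the 33 members was petD, for subunit IV, with 207 in ros1-1 and 265 in C24_WT, a log2 ratio of -0.36. Cytochrome f, cytochrome b6 and subunit IV are the large plastid-encoded subunits of 1 complex, and their genes gave ratios spanning 0.71 on the log2 scale. The small subunit genes were all lower in ros1-1. Gene petL had 3948 in ros1-1 and 4418 in C24_WT, a log2 ratio of -0.16. Gene petG had 868 in ros1-1 and 1066 in C24_WT, a log2 ratio of -0.30. Gene petN had 281 in ros1-1 and 336 in C24_WT, a log2 ratio of -0.26. The probe sets of petD and petN lay close to the floor, where measurement is less certain, and under a floor at the 60th percentile petN was at -0.05 and petD was no longer measured.

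The ATP synthase genes differed little between the arrays, with a median signal of 9159 in ros1-1 and 9053 in C24_WT. In ros1-1, 4 of the 6 were higher and 2 lower, with a median log2 ratio of 0.02. Under quantile normalization 2 were higher and 3 lower, with a median of -0.02, and after trend removal 2 were higher and 4 lower, with a median of -0.03, so the group has no settled direction. The catalytic head CF1 contains the alpha, beta and epsilon subunits of atpA, atpB and atpE. Gene atpB had 22469 in ros1-1 and 18909 in C24_WT, the highest signal of the complex, and its highest log2 ratio, 0.25. That ratio was 0.15 under quantile normalization and 0.18 after trend removal, both within the scatter of probe sets of 1 gene. Gene atpE had 15708 in ros1-1 and 15617 in C24_WT, and atpA had 11200 in ros1-1 and 10921 in C24_WT, so both were nearly equal on the arrays. The membrane part CF0 contains the products of atpF, atpH, which forms the rotating ring, and atpI. Gene atpF had 6088 in ros1-1 and 5525 in C24_WT, a log2 ratio of 0.14. Gene atpH had 7118 in ros1-1 and 7185 in C24_WT, a log2 ratio of -0.01. The lowest signal and the lowest ratio of the complex were those of atpI, with 769 in ros1-1 and 980 in C24_WT, a log2 ratio of -0.35.

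Rubisco, the carbon-fixing enzyme, has a single plastid gene, rbcL, for its large subunit. Its signal was 3306 in ros1-1 and 2830 in C24_WT, a log2 ratio of 0.22, or 0.20 after quantile normalization. Of 5 listed nuclear genes for Rubisco small subunits and activase, only RCA had a single-gene probe set, so no small subunit gene was measured. RCA encodes Rubisco activase, which frees the enzyme of bound inhibitors. The signal of RCA was 17658 in ros1-1 and 15226 in C24_WT, a log2 ratio of 0.21. That ratio was 0.17 under quantile normalization and 0.15 after trend removal.

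Within complexes the order of signals was almost the same on both arrays. It was identical for photosystem I, the cytochrome b6f complex and the ATP synthase, and 5 of 105 gene pairs of photosystem II changed places. Of these 5 pairs, 3 involved psbC, which lay below psbH, psbF and psbZ in ros1-1 and above them in C24_WT. Another was psbD, which lay below psbE in ros1-1 and above it in C24_WT. Added up over its genes, the signal of photosystem II in ros1-1 was 89.0% of that in C24_WT. The corresponding sums were 97.6% for photosystem I, 103% for the cytochrome b6f complex and 107% for the ATP synthase. Such sums follow the brightest probe sets, petB and petA in the cytochrome b6f complex and atpB in the ATP synthase. In the cytochrome b6f complex 5 of 6 genes were lower in ros1-1, with a median log2 ratio of -0.21. The sums are thus no measure of the transcript amounts of a complex.

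**Figure D3:**
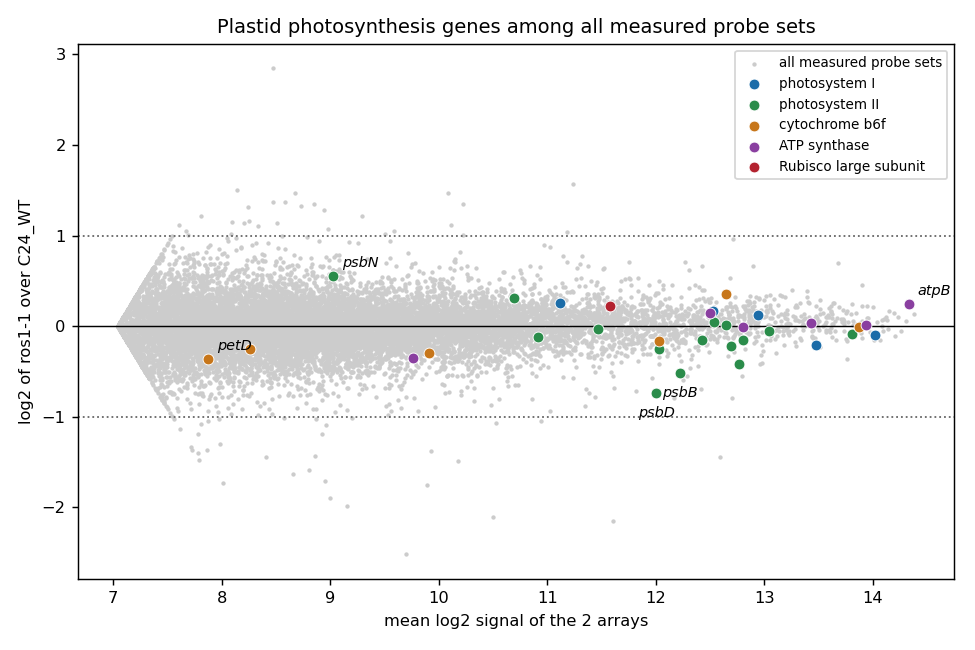
Log2 ratio of ros1-1 over C24_WT against the mean log2 signal of the 2 arrays, for the 33 plastid photosynthesis genes (coloured by complex) and all 14126 measured probe sets (grey); dotted lines mark 2-fold. The members lie mostly at the bright end, 0 of 33 cross a dotted line, and psbD sits at the lower edge of the cloud.

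Ratios differed less between neighbours on the plastid chromosome than between plastid genes at large. Between neighbouring plastid genes the median difference in log2 ratio was 0.16, over 67 pairs, and between any 2 plastid genes it was 0.24, over 2278 pairs, which is a description without a test. Stretches of genes in a row were drawn by the direction of these same ratios, so a shared direction within a stretch holds by construction. The 2 longest are given, and each includes genes near 0, such as atpH at -0.01 and atpE at 0.01. In the longest, 16 measured genes from atpH to rps4 were lower in ros1-1, with a median log2 ratio of -0.25. They were all lower under each scaling. This stretch holds 9 of the members, among them psbD, psbC, psbZ, psaA and psaB. It also holds rpoB, a core subunit gene of the plastid RNA polymerase, at -0.83, and ycf3, a photosystem I assembly factor, at -0.87. The next 11 genes, from ndhJ to petA, were all higher, with a median of 0.22 and 5 members, including atpB, rbcL and petA, and 9 of the 11 were higher under quantile normalization or trend removal.

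**Figure D4:**
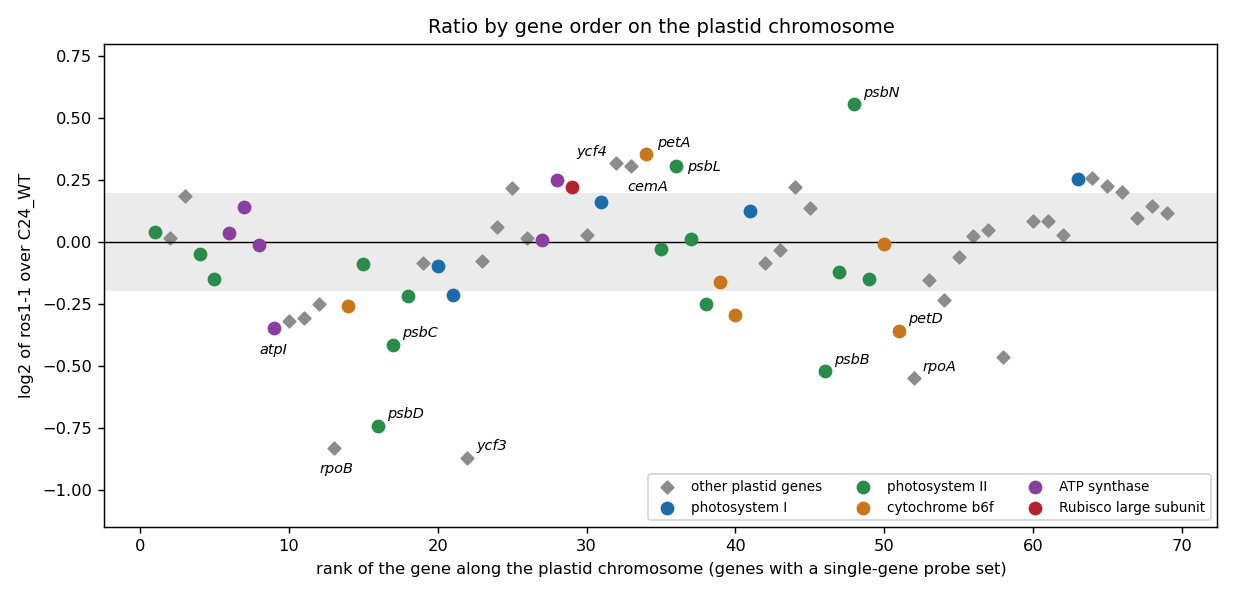
Log2 ratio of ros1-1 over C24_WT for each plastid gene above the floor, by its rank along the plastid chromosome; coloured circles are the photosynthesis genes, grey diamonds are other plastid genes, and the grey band is the scatter of probe sets of 1 gene (SD 0.19). Genes from atpH to rps4 all lie below 0 and those from ndhJ to petA all lie above it, of which 9 of 11 do so under quantile normalization or trend removal. The borders of these stretches were drawn from the ratios shown.

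Some known transcription units had ratios of 1 direction only, and others were mixed. The genes psbD, psbC and psbZ, read together, were all lower, from -0.74 for psbD to -0.22 for psbZ. The 5 genes of the psbB unit, psbB, psbT, psbH, petB and petD, were all lower as well, and their log2 ratios ran from -0.52 to -0.01. Of the unit that ends with petA, the genes counted here were the assembly factor gene ycf4, the envelope protein gene cemA and petA itself. They lay within 0.05 of each other, at 0.32, 0.31 and 0.36. The photosystem I gene psaI, directly before ycf4 and not counted in this unit, was further off, at 0.16. The psaA, psaB and rps14 unit spanned 0.13, and all of its genes were lower. Of the mixed ones, the unit from psbE to psbJ ran from -0.25 for psbE to 0.31 for psbL, and the unit of rps2, atpI, atpH, atpF and atpA ran from -0.35 to 0.14. Over all pairs of genes of 1 unit, with psaI left out, the median difference was 0.21, over 47 pairs, against 0.24 for any pair of plastid genes.

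Other plastid genes gave the surroundings of these values. The 4 rpo genes of the plastid RNA polymerase were all lower in ros1-1, under each scaling too, with a median log2 ratio of -0.43, from rpoB at -0.83 to rpoC1 at -0.25. Of the 9 measured ndh genes, for the NDH complex of cyclic electron flow, 9 were higher by small amounts, with a median of 0.14, and 7 of the 9 were higher after trend removal. Their lowest and highest ratios were 0.02 for ndhC and 0.26 for ndhE, and ndhF was under the floor on both arrays. Ribosomal protein genes of the plastid were mixed, with 6 of 15 higher, or 4 after quantile normalization, and a median of -0.06, from rps19 at -0.46 to rpl20 at 0.22. Of the 7 further plastid genes, 6 were higher, or 5 after quantile normalization or trend removal, from ycf3 at -0.87 to ycf4 at 0.32. Among the 68 measured plastid genes, 3 were at least 1.5-fold lower, psbD, rpoB and ycf3, beside 1.95% of all measured probe sets. None was at least 1.5-fold higher, beside 1.85%, except psbN under quantile normalization.

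The nuclear genes of the same machinery were thinly covered, since only 12 of 72 listed genes had a single-gene probe set in the annotation used here. All 12 were measured, 4 were higher and 8 lower in ros1-1 (3 and 9 under quantile normalization or trend removal), with a median log2 ratio of -0.06, or -0.12 and -0.11 under those scalings, and 0 of 12 were 1.5-fold different. Of 13 listed photosystem I genes 2 were measured, PSAE1, a docking subunit for ferredoxin, at -0.05 and PSAN, on the lumenal side, at -0.25. Of 11 photosystem II genes 2 were measured, the small subunit genes PSBW and PSBY, at -0.04 and -0.06. For the cytochrome b6f complex and its electron carriers only PETM, a small subunit gene, was measured, at -0.13. The nuclear ATP synthase genes ATPC1 and ATPC2, for the gamma subunit, were at 0.05 and 0.06, and ATPC2 was under the floor in C24_WT. On the deposited signals, PSAN, the light-harvesting gene LHCB4.2 at -0.29 and RCA at 0.21 were beyond the scatter of probe sets of 1 gene. RCA came within that scatter at 0.17 under quantile normalization and 0.15 after trend removal. The light-harvesting genes LHCB4.1 and LHCB4.2 had signals of 16264 and 7976 in ros1-1, against 18035 and 9766 in C24_WT, log2 ratios of -0.15 and -0.29. RPOTMP, a phage-type RNA polymerase of mitochondria and plastids, was at -0.13 with a signal of 170 in ros1-1 and 187 in C24_WT, and CRP1, named after the maize RNA-binding factor for petB, petD and petA, was at 0.02. The sigma factors, which guide the plastid polymerase to its promoters, had no single-gene probe set in the annotation used and were not analysed here.

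Markers of both green tissue and root were present. The green-tissue genes RCA and LHCB4.1 were among the brightest on both arrays. The root genes PYK10, EXPA7 and EXPA18 had signals of 13729, 193 and 373 in ros1-1, against 13028, 154 and 262 in C24_WT. All 3 were thus higher in ros1-1, with log2 ratios of 0.08, 0.33 and 0.51, and COBL9 had no single-gene probe set. EXPA7 and EXPA18 are dim, and the median of the 3, 0.33, was 0.19 when an offset replaced the floor and 0.14 under a floor at the 60th percentile. The array's own probe set for 25S ribosomal RNA read 288 in ros1-1 and 509 in C24_WT. The ratio of 3′ to 5′ signal of actin was 1.21 in ros1-1 and 1.54 in C24_WT in 1 design. In the other design it was 0.270 in ros1-1 and 0.207 in C24_WT, opposite in direction. For GAPDH it was 0.968 in ros1-1 and 0.953 in C24_WT, and 0.993 in ros1-1 and 1.02 in C24_WT in the other design. For ubiquitin it was 1.74 in ros1-1 and 1.84 in C24_WT, and 1.45 in ros1-1 and 1.18 in C24_WT in the other design. The part of root content, ribosomal RNA and RNA quality in the plastid values was not tested.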

How the data were processed

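Total RNA of 15-day seedlings was measured on 2 arrays, 1 of ros1-1 and 1 of C24_WT. The authors deposited linear MAS5 intensities, 1 per probe set, per the submitters' processing notes, without stating version, scaling target or detection calls. Trimmed of 2% at either end, the arrays had the same mean of 500.04, and the authors' scale was kept. Of the deposited probe sets, 64 controls were set aside and 22746 analysed; 13513 had 1 annotated gene. Names came from the platform annotation and the TAIR10.1 gene table, used for names and gene order.

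Ratios were log2 of ros1-1 minus log2 of C24_WT, with values under the floor raised to it. Alternatives were floors at the 25th and 60th percentiles, no floor, an offset, median centring, quantile normalization, lowess (span 0.3, statsmodels 0.14.6), plain _at probe sets, and averaging a gene's probe sets, where otherwise the brightest stood for it. Steps were tested on simulated data. The number of arrays limits the precision. Every member was named, with the lowest and highest measured gene of each other list and any gene at least 1.5-fold different. The members and lists were chosen with earlier results of these data known. No sequences were used here.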

Additional observations from a re-analysis of the deposited data

How the results depend on the processing

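The floor at the 25th percentile, no floor and plain _at probe sets changed 0 of 33 member ratios, since all members lie above the main floor on both arrays and have plain _at probe sets. Median centring moved ratios by 0.01. Quantile normalization and trend removal moved member ratios by up to 0.10 and 0.07, and an offset in place of the floor by up to 0.13, taking petD to -0.23, petN to -0.18 and psbN to 0.44. The ratios of psbF and atpE changed sign under quantile normalization and trend removal, where that of atpA came to 0 or just below. Quantile normalization took 1 member, psbN, past the 1.5-fold level upwards, where 0 had been. With the floor at the 60th percentile, 32 members were measured. The share of all measured probe sets at least 1.5-fold different was 3.80%, or 7.09% and 2.34% with the lower and higher floor, 1.44% with the offset, and 3.28% among probe sets in the members' signal range, a limit added after seeing the data. psbD stayed at least 1.5-fold lower in the alternatives run on the members; averaging probe sets was run on the nuclear lists only, as each member has 1 probe set. No paired analysis was possible because each genotype had 1 array. Low signal limits petD and petN most.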
